A study of Mus musculus with 4 samples.

Results

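Chromatin accessibility was compared between 2 classes of fetal mammary epithelial nuclei, a luminal-like class and a basal-like class, to ask how far the lineages of the gland are separated before birth. The members are the fetal nuclei that carry class 9 or class 4 in the authors' deposited table of motif scores, which assigns every nucleus to 1 of 14 numbered classes. Class 9 held 1037 fetal nuclei and class 4 held 470, together 1507 of the 2577 fetal nuclei and of the 7846 nuclei of the series. The method that made the classes is not given in the sources used here, and the classes sort these same nuclei. P-values below are therefore no independent evidence that the classes are distinct. In the fetal tests they set a difference against a spread shared across features. A small p does not by itself show that a feature repeated over the 2 libraries.

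All nuclei came from wild-type mammary gland of CD1 mice, from cells sorted by flow cytometry as EpCAM+ and negative for lineage markers (Lin-), a gate meant to leave out cells of blood, vessel and stroma. The fetal group was taken at embryonic day 18 and the adult group at 8 weeks, each with 2 biological replicates. Sex, parity and the number of animals pooled per replicate are not given in the sources used here. Nuclei were profiled by single-nucleus ATAC-seq with combinatorial indexing, in which the transposase Tn5 cuts and tags open DNA and a nucleus is known by the combination of barcodes it picks up in 2 rounds. Each fetal replicate filled 16 tagmentation wells and each adult replicate 32, with 2000 nuclei per well, and 20 nuclei were then sorted into each of 768 wells, so a barcode combination can hold more than 1 nucleus. Adult nuclei served as a yardstick only. The 1726 adult nuclei of classes 3 and 7 stood for the luminal progenitor lineage, and the 1050 of classes 1 and 8 for the basal lineage.

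The mammary epithelium is a bilayer. Its inner luminal cells carry simple keratins and tight junctions and give rise to milk-secreting and hormone-sensing cells, and its outer basal or myoepithelial cells carry stratified keratins, rest on a basement membrane and contract to eject milk. The basal state depends on the transcription factor p63 (Trp63), and luminal progenitors and alveolar cells depend on ETS-family factors such as Elf5. In the embryo the gland grows from a bud of epidermal origin whose cells can still contribute to both layers, and keratins of both layers are often found together in the same fetal cells.

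The promoters below belong to the 4 genes whose promoter regions had the smallest p, Cldn3 and Arhgef38 higher in class 9 and Cav1 and Pou2af1 higher in class 4, and to the other promoter regions of listed genes that were called, Cldn7 higher in class 9 and Acta2 higher in class 4. Each run is the 250 bases before the gene's RefSeq start on GRCm38.p6, written 5′ to 3′ on the strand of the gene.

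Cldn3, chr5:134985964-134986213, plus strand: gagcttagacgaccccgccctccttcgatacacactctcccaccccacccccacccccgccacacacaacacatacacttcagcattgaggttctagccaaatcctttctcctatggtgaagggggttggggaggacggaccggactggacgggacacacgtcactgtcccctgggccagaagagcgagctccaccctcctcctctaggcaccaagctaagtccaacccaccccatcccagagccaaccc
Cldn7, chr11:69965171-69965420, plus strand: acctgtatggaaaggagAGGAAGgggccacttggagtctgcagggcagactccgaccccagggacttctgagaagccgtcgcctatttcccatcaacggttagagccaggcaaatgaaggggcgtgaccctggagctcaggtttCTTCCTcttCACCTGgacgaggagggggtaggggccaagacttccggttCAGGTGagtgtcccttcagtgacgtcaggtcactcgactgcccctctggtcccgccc
Arhgef38, chr3:133234950-133235199, minus strand: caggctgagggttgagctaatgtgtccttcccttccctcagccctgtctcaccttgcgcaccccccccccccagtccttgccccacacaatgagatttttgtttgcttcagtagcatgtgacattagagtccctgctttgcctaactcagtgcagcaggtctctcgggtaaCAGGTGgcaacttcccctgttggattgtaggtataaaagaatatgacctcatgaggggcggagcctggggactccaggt
Cav1, chr6:17306085-17306334, plus strand: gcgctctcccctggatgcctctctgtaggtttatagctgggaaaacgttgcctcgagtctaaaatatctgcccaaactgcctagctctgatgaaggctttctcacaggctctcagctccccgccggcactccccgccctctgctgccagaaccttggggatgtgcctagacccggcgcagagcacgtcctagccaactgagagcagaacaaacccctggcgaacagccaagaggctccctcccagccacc
Pou2af1, chr9:51213440-51213689, plus strand: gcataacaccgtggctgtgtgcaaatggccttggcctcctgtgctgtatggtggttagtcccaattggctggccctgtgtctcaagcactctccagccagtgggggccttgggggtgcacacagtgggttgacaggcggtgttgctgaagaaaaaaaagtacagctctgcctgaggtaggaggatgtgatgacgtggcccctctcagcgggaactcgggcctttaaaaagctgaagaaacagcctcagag
Acta2, chr19:34255374-34255623, minus strand: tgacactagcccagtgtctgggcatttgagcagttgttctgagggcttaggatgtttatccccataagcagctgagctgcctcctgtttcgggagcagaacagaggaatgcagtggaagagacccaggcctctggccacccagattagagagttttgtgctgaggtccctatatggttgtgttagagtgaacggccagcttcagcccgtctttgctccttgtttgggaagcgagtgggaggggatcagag

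Capitals mark letter matches, on either strand, to the E-box CAGGTG or to the ETS core AGGAAG. The same windows were searched for the AP-1 site TGANTCA, the Grainyhead site AACNGGTT, the p53 family half-site RRRCWWGYYY and the CArG box CCWWWWWWGG. Here N is any base, R is A or G, Y is C or T and W is A or T. None of these 4 had an exact match in the 6 windows. Sites that depart from the letters were not counted, so a window without a match may still hold such a site. The Cldn7 window held 2 ETS and 2 E-box matches and that of Arhgef38 held 1 E-box match, and no match overlapped another. Over all 32851 RefSeq windows of this length, 17.2% held the E-box, 29.5% the ETS core, 6.75% the AP-1 site, 7.13% the p53 family half-site, 1.79% the Grainyhead site and 1.47% the CArG box. Of the 13 windows that fell in promoter regions called higher in class 9, 6 held the E-box and 2 the ETS core. Of the 19 in regions called higher in class 4, 2 held the E-box, 5 the ETS core, 2 the AP-1 site and 2 the p53 family half-site. Such matches describe the letters in these windows and name no factor at work there.

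Class 9 made up 43.7% of the nuclei of fetal replicate 1 (385 of 882, exact binomial 95% interval 40.3 to 47.0) and 38.5% of replicate 2 (652 of 1695, 36.1 to 40.8). Class 4 made up 15.0% (132 nuclei, 12.7 to 17.5) and 19.9% (338 nuclei, 18.1 to 21.9). Class 9 was thus the larger class in both libraries, with intervals that cover counting error only. Median reads per nucleus were 5807 and 8382 in class 9 and 6224.5 and 7081.5 in class 4, so neither class was the deeper one in both libraries. Reads were summed over the nuclei of each class in each library, which gave sums of 2835995 and 6657005 reads for class 9 and of 971201 and 3108478 for class 4. Distal regions took 41.1% and 41.2% of the class 9 reads and 42.1% and 41.1% of the class 4 reads. Promoter regions took 24.4% and 22.5% in class 9 against 20.8% and 19.2% in class 4, higher in class 9 in both libraries, and the adult luminal progenitor-like sums were likewise above the adult basal-like ones (25.5% and 23.7% against 22.6% and 21.6%). No barcode occurred in 2 libraries. No doublet caller was run, and without the deepest 10% of the nuclei of each library the shares were 42.6% and 37.5% for class 9 and 14.5% and 19.9% for class 4.

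Distal regions had the larger ratios between the classes, with a median absolute log2 ratio of 0.62 against 0.31 at promoter regions and 0.27 over gene spans. This measure grows with counting noise, and reads per feature were not matched between the 3 kinds. With a minimum mean of 30 reads the medians were 0.43, 0.25 and 0.25. A distal region is one of the authors' 1000-base regions away from promoters, where enhancers are expected to lie. To be tested, a region had to average 10 or more reads over the 4 sums, and 37955 distal regions did. Of these, 987 were called higher in class 9, which is 2.6% of those tested, and 1152 were called higher in class 4, which is 3.04% (edgeR quasi-likelihood test with library as a block, Benjamini-Hochberg adjusted p under 0.05). Together this was 2139 regions or 5.64%, and 6564 regions had an unadjusted p under 0.05. Over the called regions, which the test selects for large ratios, the median absolute log2 ratio was 2.27, and 1.53 with a minimum mean of 30 reads. DESeq2 called 485 of the regions tested, 117 higher in class 9 and 368 higher in class 4, and leaving out fetal replicate 1 or 2 left 751 or 972 calls. Without a library the split turned, with 403 higher and 348 lower without replicate 1 and 589 and 383 without replicate 2, and so it did in 1 fit of all 8 sums, with 855 and 749. Called regions lay inside a gene about as often as others did: 51.9% of those higher in class 9, 52.3% of those higher in class 4 and 54.0% of all tested.

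The 6 regions with the smallest p among those higher in class 9 were the 6 deepest regions tested, with a mean of 366 to 6314 reads per sum where the next had 269. Reads of this depth over 1000 bases were present in every sum, fetal and adult. The deepest was chr17:39844166-39845165 (mm10), with Esp38, 105355 bases away, as the nearest protein-coding gene. Genes of other types, such as those of structural RNAs, were not used to place regions, so the region may lie in one. The deepest region had 10812 and 6429 CPM (read count scaled by the reads of its sum) in class 9 and 4392 and 3423 in class 4. In the adult it had 10106 and 9783 in luminal progenitor-like and 5930 and 5409 in basal-like nuclei. The other 5 had log2 ratios of 1.08 to 1.47. They lay inside Zc3h7a, Lars2 and Cmss1, and 281453 and 60387 bases from Pex2 and Axin2 as the nearest genes. Since such depth is unlike that of the remaining regions, they are set apart here, and without them 2126 regions were called, 978 higher in class 9 and 1148 higher in class 4. The next 6 regions of the same rule, chosen after their values were seen, are described instead. The rule takes only features at which the 2 classes do not overlap, so that the order of the classes at a named feature was fixed by the choice. CPM values are relative to the reads of a sum that lie in tested distal regions, scaled by the trimmed mean of M values (TMM), and are given in the order replicate 1, replicate 2.

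A region at chr15:102016954-102017953, which lies 10263 bases from Krt18, the gene of a simple keratin of luminal cells, had 143 and 144 CPM in class 9 and 34.8 and 18.9 in class 4. The log2 ratio was 2.56 with a standard error (SE) of 0.35 (adjusted p = 1.3e-09). In the authors' deposited table of Cicero links, which scores the co-accessibility of 2 regions, its strongest promoter partner was Krt8, the pairing partner of Krt18, at a score of 0.397. The promoter of Sp1 came next at 0.331. These scores are pooled over the fetal and adult samples and are not specific to the 2 classes. A region at chr2:103138492-103139491, 45843 bases from Apip, had 92.2 and 64.7 CPM in class 9 and 3.48 and 2.36 in class 4, a log2 ratio of 4.69 with an SE of 0.66 (adjusted p = 3.6e-09). In the authors' deposited table the strongest promoter partner was that of Ehf, an ETS-family factor of epithelial cells, at 0.162, followed by that of Cat at 0.132. Inside Rad51b, a gene of homologous recombination, a region at chr12:79674819-79675818 had 140 and 108 in class 9 and 13.9 and 15.3 in class 4 (log2 ratio 2.98, SE 0.40, adjusted p = 6.8e-10). Inside Trak1, which codes for an adaptor of mitochondrial transport, chr9:121415212-121416211 had 108 and 101 in class 9 and 13.9 and 9.45 in class 4 (log2 ratio 3.24, SE 0.46). At these 4 regions, Krt18 to Trak1, the adult log2 ratios were 2.00, 2.49, 3.60 and 2.32, and the difference between fetal and adult ratios was not called.

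A region inside Ergic1, chr17:26620964-26621963, behaved differently between the stages. It had 88.4 and 63.2 CPM in class 9 and 0 and 2.36 in class 4 (log2 ratio 5.24, SE 0.72, adjusted p = 1.7e-09), against 161 and 149 in adult luminal progenitor-like and 58.7 and 88.1 in adult basal-like nuclei. Fetal class 4 was near 0 where adult basal-like nuclei were not, and the fetal and adult log2 ratios differed by 4.16 (SE 0.74, adjusted p = 0.00021). The sixth region, chr8:126804948-126805947, 124717 bases from Tomm20, had 90.9 and 85.9 in class 9 and 0 and 10.6 in class 4 (log2 ratio 3.57, SE 0.52), and it was not called by DESeq2. In the Cicero links, the strongest promoter partner of the Rad51b region was that of Rad51b and Zfyve26 (0.216). For the Trak1, Ergic1 and Tomm20 regions it was that of Nktr (0.249), Crebrf (0.281) and Irf2bp2 (0.322).

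On the class 4 side 6 regions were named. Inside Nrg1, which codes for the ligand neuregulin 1, chr8:32218549-32219548 had 18.7 and 40.4 CPM in class 9 and 129 and 162 in class 4 (log2 ratio −2.28, SE 0.32, adjusted p = 3.4e-09). In the adult the same region had 4.29 and 6.21 in luminal progenitor-like and 162 and 145 in basal-like nuclei. Fetal class 4 was thus close to the adult basal-like level, while fetal class 9 was above adult luminal progenitor-like nuclei in both libraries. Inside Ttc23, chr7:67663687-67664686 showed the same order, with 26.2 and 44.0 in class 9 and 195 and 142 in class 4 (log2 ratio −2.17, SE 0.30, adjusted p = 1.2e-09) against 5.72 and 9.66 and 157 and 169 in the adult. The adult lineage ratios of these 2 regions were −4.91 and −4.46, larger than the fetal ones by 2.55 (adjusted p = 0.0015) and 2.21 (adjusted p = 0.0028) in edgeR's test of the difference.

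Inside Lrig1, which codes for a negative regulator of ErbB receptors, chr6:94627745-94628744 had 0 and 8.28 CPM in class 9 and 87.0 and 68.5 in class 4 (log2 ratio −3.90, SE 0.56), a call that DESeq2 did not make. Inside Golim4, chr3:75937598-75938597 had 0 and 4.14 against 62.6 and 66.1 (log2 ratio −4.59, SE 0.66). Inside the circadian gene Per2, chr1:91437529-91438528 had 4.98 and 15.5 against 143 and 64.9 (log2 ratio −2.99, SE 0.44). A region 28752 bases from Atp6v1c1, chr15:38721196-38722195, had 2.49 and 5.18 against 101 and 61.4 (log2 ratio −4.10, SE 0.57). At these 4 no difference from the adult ratio was called.

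**Figure D1:**
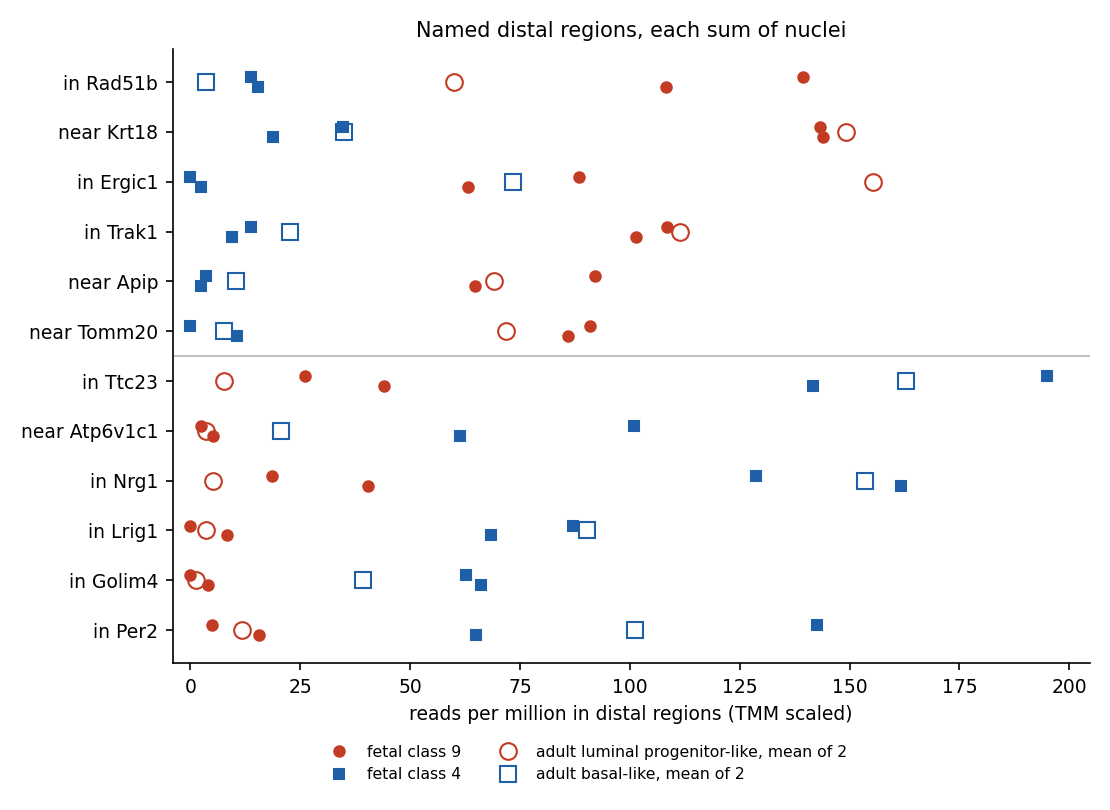
CPM (horizontal axis, TMM scaled) of 12 distal regions, named by the gene they lie in or nearest to. Filled circles are fetal class 9 and filled squares fetal class 4, 1 per library, and open symbols are the means of 2 adult libraries; regions were chosen for no overlap between the 2 classes, and adult basal-like nuclei are well above fetal class 4 at the Ergic1 region.

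Some genes had several called regions, counted by the gene a region lies in or nearest to, which is a description with no test. Over all tested distal regions 2.6% were called higher in class 9 and 3.04% higher in class 4, and genes with many tested regions have more chances of a call. The genes with 5 or more calls in 1 direction were Runx1, which codes for a Runt-family transcription factor, with 6 of 43 regions higher in class 9 and 1 higher in class 4, Barx2 with 5 of 19 and Pced1b with 5 of 9 higher in class 9, and Dusp6, which codes for a phosphatase of the ERK pathway, with 7 of 25 higher in class 4 and 1 higher in class 9. Among the listed mammary genes, those with 2 or more calls in 1 direction, beside Runx1, were Cldn3 (3 of 4), Krt18 (3 of 8), Ehf (2 of 12) and Bcl11b (2 of 22, and 1 the other way) higher in class 9. Higher in class 4 were Dst (4 of 20), Trp63 (2 of 8), Lama3 (2 of 12) and Edar (2 of 16).

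Promoter regions differed far less. Of 13630 tested, 31 were called higher in class 9 (0.227%) and 40 higher in class 4 (0.293%), together 0.521%, and 1201 had an unadjusted p under 0.05. DESeq2 called 4, of which 1 was higher in class 9. The split was not firm, with more calls higher in class 9 than in class 4 when either fetal library was left out. It turned likewise without the deepest 10% of nuclei (18 and 15). Scaling by all reads of the nuclei, which leaves the higher promoter share of class 9 in the ratios, moved the median log2 ratio from 0.02 to 0.25 and gave 148 calls higher in class 9 and 26 higher in class 4. Promoter ratios below are relative to the median promoter.

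The promoter region with the smallest p was that of Cldn3, chr5:134985486-134986485, which codes for a tight junction claudin. It had 340 and 268 CPM in class 9 and 20.6 and 53.8 in class 4 (log2 ratio 2.75, SE 0.27, adjusted p = 1.5e-19), and its call was lost in DESeq2. The promoter region of Arhgef38, chr3:133234470-133235469, had 192 and 189 against 41.2 and 27.8 (log2 ratio 2.56, SE 0.35, adjusted p = 2.1e-09). On the other side, Cav1, which codes for the caveolar coat protein, chr6:17305503-17306502, had 58.9 and 91.7 in class 9 and 258 and 243 in class 4 (log2 ratio −1.68, SE 0.26, adjusted p = 2.0e-07). Pou2af1, a transcriptional coactivator gene best known from B cells, chr9:51213325-51214324, had 9.06 and 21.4 against 103 and 111 (log2 ratio −2.74, SE 0.45, adjusted p = 6.3e-06). The calls at Arhgef38, Cav1 and Pou2af1 were made under every alternative run.

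Acta2, which codes for the smooth muscle actin of myoepithelial cells, had 18.1 and 22.8 CPM at its promoter region in class 9 and 72.1 and 120 in class 4 (chr19:34254818-34255817, log2 ratio −2.24, SE 0.45, adjusted p = 0.00091), against 27.8 and 10.2 and 111 and 140 in the adult. The class 4 values overlapped those of adult basal-like nuclei at this region. Over the whole span of Acta2, class 4 was below them, with 62.0 and 83.8 CPM against 138 and 153, and the lineage ratios of the 2 stages differed by 1.32 (adjusted p = 0.00079). The promoter call was lost in DESeq2 and without replicate 2. A second claudin gene, Cldn6, which is known from embryonic epithelia, had at a region 1800 bases from its start 131 and 76.6 in class 9 and 30.9 and 13.9 in class 4 (chr17:23680666-23681665, log2 ratio 2.29, SE 0.47). In the adult, by contrast, the values were 68.6 and 45.1 in luminal progenitor-like and 57.1 and 65.3 in basal-like nuclei, and the lineage ratios of the 2 stages differed by 2.45 (adjusted p = 0.011). The fetal call at Cldn6 was lost in DESeq2 and without replicate 2. The other regions of the authors' promoter set named by the rule were, higher in class 9, 1 near Xirp1 and others inside Gm8439, Mien1, Mfsd6l and Pnpla2, with log2 ratios of 2.43 to 4.84. Higher in class 4 were 2 near Tslp and Trim62 and others inside Nlrp10, Klhdc8b and Brinp1, with −2.20 to −1.62. Of these 10, the regions inside Mfsd6l and Brinp1 held the RefSeq promoter of the gene, the region inside Klhdc8b held that of Ccdc71, and the others held none. Each of these 10 calls was lost under 1 or more alternatives: all but Tslp in DESeq2, and all but Mfsd6l without a fetal library, Brinp1 without either one. Pnpla2 and Nlrp10 were also lost without the deepest 10% of nuclei and with class 9 thinned to class 4 reads, and Mfsd6l in counts of nuclei with at least 1 read.

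Few promoter regions of listed genes were called, though a larger share than the 0.521% over all promoter regions. Of 53 promoter regions of 51 listed mammary genes, 2 were called higher in class 9, Cldn3 and Cldn7, and 1 higher in class 4, Acta2, with a median log2 ratio of 0.05 beside 0.02 over all promoter regions. The Cldn7 region had a log2 ratio of 1.91 (SE 0.50, adjusted p = 0.031). Over lists, the median was 0.63 for the 9 promoter regions of luminal keratins and junctions, 0.66 for the 4 of progenitor and milk genes and 0.24 for the 7 of luminal regulators. It was −0.68 for the 4 of myoepithelial contractile genes, −0.24 for the 6 of basal regulators and 0.08 for the 4 of basal keratins and adhesion, and −0.20 and −0.07 for hormone-sensing and fetal genes.

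Accessibility over whole genes gave most listed genes a value. Reads were counted over the annotated span of each gene with 2000 bases added at both ends, and of 17097 genes tested 478 were called higher in class 9 (2.8%) and 860 higher in class 4 (5.03%), together 7.83%. The median log2 ratio over all genes was 0.02. DESeq2 called 277, 42 higher in class 9 and 235 higher in class 4, and leaving out a fetal library left 588 to 783. The split moved with the scaling: by all reads of the nuclei, the median was 0.15 and 982 genes were called higher in class 9 and 562 higher in class 4. Gene length moved with the direction. The median span was 23.2 kb for genes called higher in class 9, 179 kb for those higher in class 4 and 24.0 kb for all, and the 227 spans over 500 kb had a median log2 ratio of −0.59; the part of span length in the calls was not tested.

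Luminal keratins and junction genes leaned to class 9. Of the 16 genes of this list, 11 were called higher in class 9 and 0 higher in class 4, and the median log2 ratio was 0.95. Krt18 had 52.3 and 55.7 CPM over gene spans in class 9 and 17.3 and 12.1 in class 4 (log2 ratio 1.97, SE 0.32, adjusted p = 2.4e-07). Its partner Krt8 had 142 and 155 against 76.4 and 76.3 (log2 ratio 0.97, SE 0.17). Cldn3 had 134 and 111 against 21.6 and 41.4 (log2 ratio 1.79, SE 0.21). None of the 3 overlapped between the classes, which carries little weight with 2 sums per class. At Cldn3 this was fixed by the rule that named it, and the share over all gene spans was not counted. Krt7 and Krt19, 2 more simple keratin genes, had ratios of 1.90 and 1.57, the claudin genes Cldn4 and Cldn7 1.07 and 0.97, the tight junction gene Ocln 0.97 and the E-cadherin gene Cdh1 0.71. The splicing regulators Esrp1 and Esrp2 had 0.53 and 0.94. Cldn1, Muc1, Prom1, Cd24a and Epcam were not called, with ratios of 0.24 to 0.61. Among the 11 calls, those at Krt8, Krt18, Cldn3 and Esrp2 were made under every alternative run, and each of the others was lost without 1 of the fetal libraries. DESeq2 gave no adjusted p at Krt18 and Cldn3.

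Regulators of the luminal lineage were separated only in part. Of 20 genes, 6 were called higher in class 9 and 0 higher in class 4, with a median of 0.23. Ehf stood first, with 147 and 173 CPM in class 9 and 54.8 and 54.9 in class 4 (log2 ratio 1.57, SE 0.18, adjusted p = 1.9e-14). In the adult the ratio at Ehf was 2.49, larger by 0.94 (adjusted p = 0.0060). Elf5, the alveolar ETS factor gene, had 66.2 and 62.1 against 36.0 and 34.0 (log2 ratio 0.87, SE 0.26, adjusted p = 0.013), below its adult ratio of 2.04 (adjusted p of the difference 0.017). The Notch receptor genes Notch1 and Notch3 had 0.78 and 0.66, the Notch target gene Hes1 0.59 and the ETS factor gene Elf3 0.81. Gata3 and Foxa1, which code for factors of mature luminal cells, had 0.15 and 0.20 and were not called (adjusted p = 0.54 and 0.68). Except at Ehf, these 6 calls were lost without 1 or the other fetal library.

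Basal genes leaned to class 4. Of 13 basal keratin and adhesion genes, 0 were called higher in class 9 and 5 higher in class 4, with a median log2 ratio of −0.36 where the adult median was −0.95. Not every member had the larger ratio in the adult: Itgb1 had −0.59 in the fetus and −0.12 in the adult, Itgb4 −0.36 and −0.10, and Dst −0.72 and −0.63, and none of these 3 differences between the stages was called. Krt5, the stratified keratin gene that marks basal cells, had 11.7 and 11.2 CPM in class 9 and 28.8 and 37.2 in class 4 (log2 ratio −1.56, SE 0.39, adjusted p = 0.0019). Krt14, which codes for the pairing partner of keratin 5, had 59.5 and 49.3 in class 9 and 62.0 and 67.9 in class 4, so that the classes lay close together (log2 ratio −0.30, SE 0.23, adjusted p = 0.52). The adult ratio of Krt14 was −2.98, and the fetal and adult ratios differed by 2.66 (adjusted p = 2.0e-13). At Krt17, another basal keratin gene, class 9 was below class 4 within each library, with 46.9 and 37.5 in class 9 and 77.8 and 46.5 in class 4. The difference was not called (log2 ratio −0.50, adjusted p = 0.25), and the adult ratio was −3.59. The other 4 called genes included Lama3 (−1.10), which codes for a chain of an epithelial laminin, the hemidesmosome linker gene Dst (−0.72) and the integrin gene Itgb1 (−0.59). Integrin genes Itga6, Itgb4 and Itga3 were not called. The calls at Lama3 and Dst were made under every alternative run, that at Krt5 was lost without replicate 2, and that at Itgb1 without either replicate, when scaled by all reads and in DESeq2.

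Contractile genes of the myoepithelium had 4 of 12 called higher in class 4 and 0 higher in class 9, with a median of −0.59 against −1.50 in the adult. Tagln, which codes for transgelin, had 14.4 and 13.4 CPM in class 9 and 67.7 and 41.0 in class 4 (log2 ratio −1.88, SE 0.33, adjusted p = 1.2e-06). Its adult ratio was smaller, at −1.01, and the difference between the stages was not called (adjusted p = 0.27). Acta2 had 34.7 and 24.6 against 62.0 and 83.8 (log2 ratio −1.38, SE 0.26, adjusted p = 7.3e-06). Tpm2 and Cald1, genes of actin-binding proteins, had −0.91 and −0.49. The later contractile genes Myh11, Cnn1 and Mylk and the oxytocin receptor gene Oxtr were not called in the fetal classes, with ratios of −0.69 to −0.18, and all 4 were called in the adult, with −2.52 to −1.54. The calls at Acta2, Tpm2 and Cald1 were lost without replicate 2.

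Among 15 basal regulators, 4 were called higher in class 4 and 2 higher in class 9, with a median of −0.35. Trp63 had 120 and 116 CPM in class 9 and 192 and 234 in class 4 (log2 ratio −0.87, SE 0.15, adjusted p = 4.8e-07), below its adult ratio of −1.89 (adjusted p of the difference 2.4e-05). Egfr, Dll1 and Ngfr, which code for a growth factor receptor, a Notch ligand and a neurotrophin receptor, had −0.51, −0.59 and −0.64. Sox9, which codes for a factor of stem and progenitor states, was higher in class 9 with 108 and 105 against 76.4 and 50.7 (log2 ratio 0.82, SE 0.20, adjusted p = 0.0010), and so was Sox10 (0.57, adjusted p = 0.037). Lgr5 and Mef2c were level between the fetal classes (−0.09 and −0.05) and basal in the adult (−1.72 and −1.52). The calls at Egfr, Dll1, Ngfr, Sox9 and Sox10 were each lost without a fetal library, and that at Trp63 was kept under every alternative run.

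Progenitor and milk genes had 2 of 10 tested called higher in class 9, Aldh1a3 (0.59) and Wfdc18 (0.96), with a median of 0.58 against 1.82 in the adult, where 9 were called. Csn2, Wap and Ltf had too few reads to be tested. Kit, which codes for a receptor tyrosine kinase of luminal progenitors, had 46.4 and 72.7 CPM in class 9 and 44.7 and 39.1 in class 4 (log2 ratio 0.58, SE 0.25, adjusted p = 0.16). Its adult ratio was 3.57, and the 2 stages differed by 2.99 (adjusted p = 7.2e-16). Against adult mature luminal-like nuclei over basal-like ones the direction was the opposite, with the fetal ratio higher by 1.58 (adjusted p = 0.0045). Of 11 hormone-sensing genes, 1 was called higher in class 4, Fgfr2 (−0.38), and 0 higher in class 9. The receptor genes Esr1, Pgr and Prlr had −0.40, −0.31 and −0.09 and were not called. Of 18 genes of the fetal and embryonic gland, 1 was called higher in class 9, Igf2bp1 (0.73), and 2 higher in class 4, the ectodysplasin receptor gene Edar (−0.47) and Nrg3 (−0.85), with a median of 0.05. With 2.8% of all gene spans called higher in class 9 and 5.03% higher in class 4, counts this small over 11 and 18 genes are close to the background. The calls at Aldh1a3, Wfdc18, Fgfr2, Igf2bp1, Edar and Nrg3 were each lost without a fetal library, and that at Fgfr2 also without the replicate block.

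**Figure D2:**
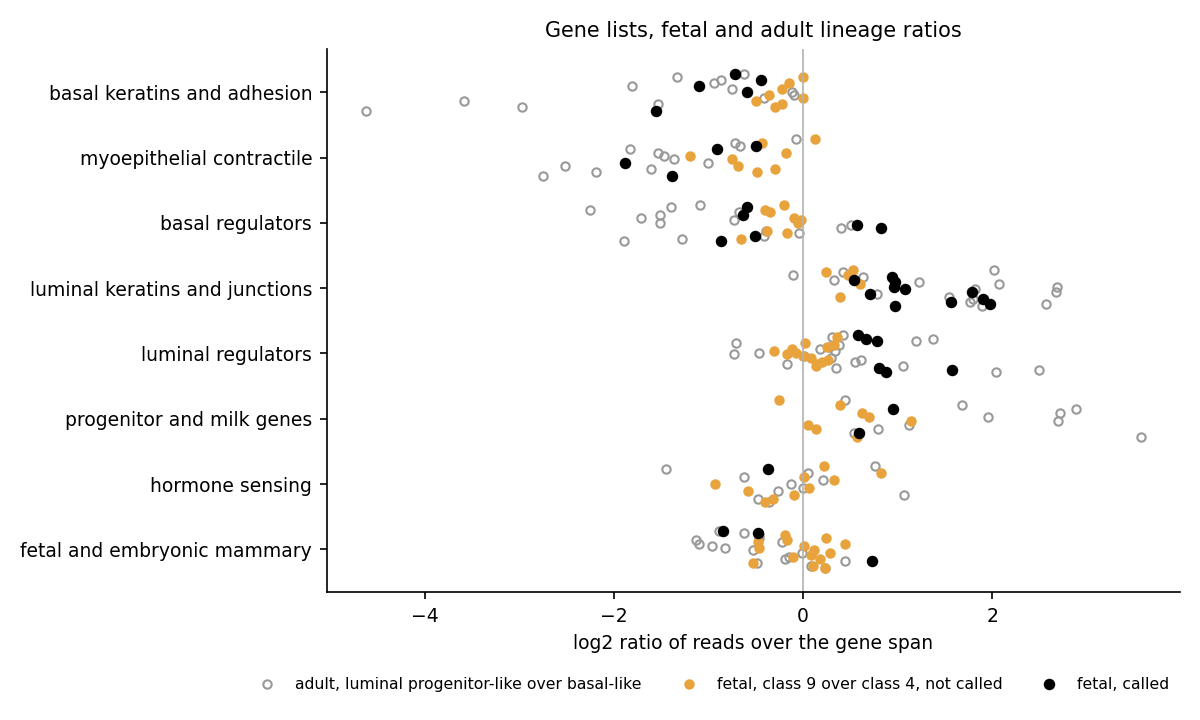
Log2 ratio of reads over gene spans (horizontal axis), 1 point per gene in rows by gene list. Black points are fetal ratios that were called, orange points fetal ratios that were not, and open grey points the adult ratios of the same genes; the 16 luminal keratin and junction genes all lie above 0 in the fetal classes, and basal and contractile genes reach further below 0 in the adult.

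Markers of the class names and of other cells were set beside each other, to be read against the 2.8% of all gene spans called higher in class 9 and the 5.03% higher in class 4. Of 10 luminal markers, 8 were called higher in class 9 and 0 higher in class 4, and their summed share of gene reads was 0.114% and 0.120% in class 9 against 0.0675% and 0.0652% in class 4. Of 11 basal markers, 4 were called higher in class 4 and 0 higher in class 9 (summed share 0.0558% and 0.0535% against 0.0799% and 0.0875%), with all 11 ratios below 0. In the adult, all 11 basal markers were called. Of 7 stromal markers, 2 were called higher in class 4, Pdgfrb and Prrx1, with a summed share of 0.0197% and 0.0210% in class 9 and 0.0251% and 0.0267% in class 4. Both of these calls were lost without replicate 1 and when scaled by all reads, and that at Pdgfrb also without replicate 2. The stromal share moved with the basal genes, and its part in them was not tested. Of the 4 endothelial, 3 immune, 4 epidermal, 2 adipocyte and 2 muscle markers tested, 0 were called by edgeR. Unadjusted p was under 0.05 for Ptprc, Csf1r and Sbsn, with log2 ratios of −0.89, −0.83 and 0.87.

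By rank rather than by list, the 16 gene spans chosen by the rule in the 2 directions were called under every alternative run, except that DESeq2 gave no adjusted p at Cldn3, Nupr1 and Bspry. Next to Ehf and Cldn3, those higher in class 9 were Krt78, a keratin gene of the Krt8 cluster (log2 ratio 1.02), the stress-response gene Nupr1 (3.12), the polarity gene Pard6b (1.34), the endolysosomal channel gene Tpcn1 (1.07), Bspry (1.67) and Rab15 (1.02). Nupr1 had 35.1 and 36.5 CPM in class 9 and 2.88 and 4.65 in class 4. Higher in class 4, Nrg1 came first, with 407 and 527 in class 9 and 1405 and 1298 in class 4 (log2 ratio −1.53, SE 0.10, adjusted p = 1.4e-52). Its adult ratio was −1.71, and the difference between the stages was not called. Basement membrane genes followed: Col4a1 had 98.2 and 121 against 357 and 314 (log2 ratio −1.59, SE 0.13), and its neighbour Col4a2, whose span overlaps that of Col4a1 so that reads between them count for both, had 141 and 178 against 473 and 359 (−1.34, SE 0.12). Lama3 (−1.10) and the guidance gene Sema5a (−1.18) came next. Lrp1b (−1.15) and Nrxn3 (−1.02) are long genes best known from neurons.

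Motif scores gave the same nuclei a readout by transcription factor. The authors' deposited chromVAR score says how much more or less open the regions with a motif are in a nucleus than background regions, relative to all nuclei of the series. It was averaged over the nuclei of each class in each library. Of 427 motif columns, 144 were called higher in class 9 (33.7%) and 69 higher in class 4 (16.2%), together 49.9% (limma, Benjamini-Hochberg adjusted p under 0.05, SE 0.07 for every motif because the spread is shared across motifs). Identical columns leave 388 distinct ones. With so many calls, size matters more than the call: Ctcf, the motif of an architectural factor present in all cells, differed by 0.86, and only 27 called columns differed by more.

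The largest differences were at 2 motifs of the p53 family. Trp73 scored −0.80 and −0.71 in class 9 and 3.19 and 3.20 in class 4, a difference of −3.95, and Trp63, whose motif is nearly the same, scored −0.78 and −0.71 against 2.89 and 2.81, a difference of −3.60. The adult lineage differences were −4.44 and −4.36. The gap was smaller in the fetus by 0.50 and 0.76 (adjusted p = 1.4e-05 and 2.6e-08). The third p53-family motif, Trp53, went slightly the other way, with a difference of 0.18 (adjusted p = 0.019), a call that was lost without either library. AP-1-type motifs followed at a distance, with Smarcc1 at −1.13, Fos and Fosb at −1.02, Nfe2l2 at −0.95, Bach1 at −0.85 and Bach2 at −0.78. Of the 11 AP-1 motifs listed, 10 were called higher in class 4 and 0 higher in class 9.

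Higher in class 9, the Grainyhead motif Grhl1 came first, with 0.28 in both class 9 means and −1.42 and −1.39 in class 4, a difference of 1.69. Next were E-box motifs: Id3, whose column is identical to that of Id4, differed by 1.66, Mesp1 by 1.49, Snai2 by 1.45 and Tcf3 by 1.27. Motif names here stand for a sequence, and proteins of opposite roles can share one. At these 4 E-box motifs the adult differences were 1.60, 1.34, 1.42 and 1.28, and no difference between the stages was called. The epithelial ETS motifs Elf5 and Elf3 differed by 1.24 and 1.21. In the adult they differed by 2.63 and 2.39, larger by 1.39 and 1.18 (adjusted p = 7.4e-14 and 1.1e-12). Nfix, a nuclear factor I motif, differed by 1.28 in the fetus and by 0.80 in the adult, less than in the fetus by 0.48 (adjusted p = 2.3e-05).

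Across the 427 columns the fetal and adult differences had a correlation of r = 0.84, given as a description since motifs share sequences and regions. Of the columns called at both stages, 165 had the same sign and 13 opposite signs. The difference between the stages was called for 147 columns, which is 34.4% (14.3% higher in the fetus and 20.1% lower), and in 120 of them the adult difference was the larger in size. Leaving out 1 library left 94 to 111 such columns. Columns of opposite sign, singled out after their values were seen, were led by NF-κB and Runt motifs. Nfkb1 differed by −0.44 in the fetus (−0.43 and −0.45 in the 2 libraries) and by 1.12 in the adult (0.92 and 1.32), and Rela by −0.47 and 0.98. Runx1, whose column is identical to that of Runx3, differed by 0.68 in the fetus (0.68 and 0.67) and by −0.50 in the adult (−0.40 and −0.60). Gata2 was near 0 in the fetus (0.10) and at −0.87 in the adult.

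**Figure D3:**
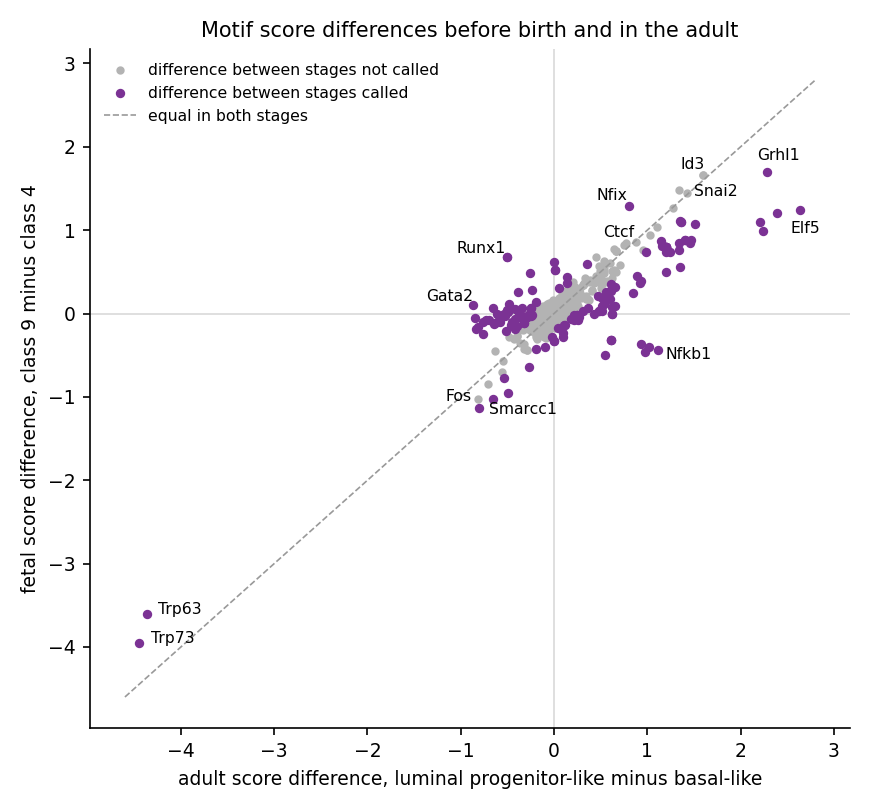
Difference in mean chromVAR score between the classes for 427 motif columns, fetal class 9 minus class 4 (vertical axis) against adult luminal progenitor-like minus basal-like (horizontal axis). Purple points are the 147 columns whose difference changed with stage; Trp63 and Trp73 lie far below 0 in both stages, while Runx1 and Nfkb1 lie on opposite sides of 0.

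The size of the separation before birth was set against that of the adult at matched depth. For each side and replicate number the deeper of the fetal and adult sums was thinned to the reads of the other. The 2 stages were fitted apart, each with its own spread between libraries. A share called thus depends on that spread as well as on the size of the ratios. Of 32602 distal regions tested in both, 1904 (5.84%) were called between the fetal classes and 10242 (31.4%) between the adult lineages, and the median absolute log2 ratio was 0.62 against 0.93. For promoter regions, 64 of 13027 (0.491%) were called in the fetus and 892 (6.85%) in the adult. For gene spans, 1327 of 16832 (7.88%) and 3859 (22.9%) were called. The distal contrast was smaller among well covered regions: with a minimum mean of 30 reads, 736 of 7727 (9.53%) were called in the fetus and 32.0% in the adult. Before thinning, the adult lineages had 14291 of 42237 distal regions called (33.8%), 1524 of 13756 promoter regions (11.1%), 4303 of 16982 gene spans (25.3%, 11.0% higher and 14.3% lower in luminal progenitor-like nuclei) and 294 motif columns (68.9%, 40.0% and 28.8%). The distal calls split into 16.5% and 17.3%. Over 7727 distal regions at matched depth, the log2 ratios of the 2 libraries had r = 0.55 in the fetus and r = 0.79 in the adult. Over 8446 promoter regions, r was 0.22 and 0.48. These correlations are across regions, which are not independent replicates, and they rise with the spread of the ratios, which was wider in the adult. The part of the ratios shared by the 2 libraries was taken as the square root of their covariance. At distal regions it was 0.60 in the fetus and 0.97 in the adult, and at promoter regions 0.24 and 0.39. By this measure the stages lay closer together than by the shares called.

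**Figure D4:**
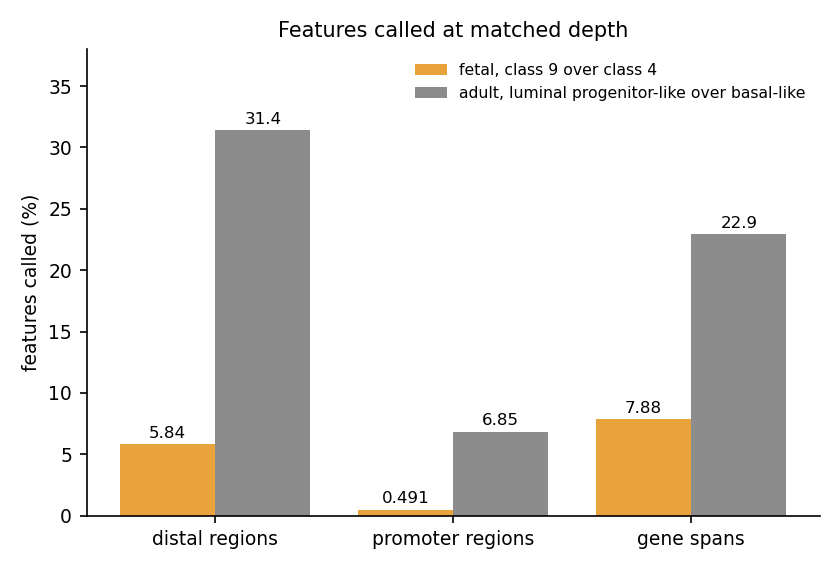
Percent of features called (vertical axis, from 0) at matched depth for distal regions, promoter regions and gene spans, in fetal class 9 over class 4 and in adult luminal progenitor-like over basal-like nuclei. The fetal share is 5.84% against 31.4% for distal regions and 0.491% against 6.85% for promoter regions. Shares called depend on the spread between libraries as well as on the size of the ratios.

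Most distal regions called before birth were called in the adult too. Fetal and adult libraries share no samples. Of 1811 distal regions called between the fetal classes and tested in the adult, 1397 (77.1%) were called there, 1389 of them in the same direction. Beside this, 8966 of all 28497 distal regions tested at both stages were called in the adult. Of these 8966, 15.6% were called in the fetus, beside 1811 of all 28497. Over all 8966, whether called in the fetus or not, the fetal ratios leaned the same way. In the 4356 regions higher in adult luminal progenitor-like nuclei the median log2 ratio was 2.16 in the adult and 0.93 in the fetus, with 87.1% above 0 in the fetus. In the 4610 higher in adult basal-like nuclei the medians were −2.24 and −0.78, with 82.4% below 0. These regions were chosen for their adult call, which favours a larger ratio in the adult. Among the 1811 regions called in the fetus instead, the order of the stages was mixed. In those higher in the luminal-like class the median log2 ratio was 2.21 in the fetus and 1.69 in the adult. In those higher in the basal-like class the medians were −2.19 in the fetus and −2.99 in the adult. Over all 28497 distal regions tested at both stages, 56.6% of fetal ratios were above 0. For promoters, 42 of the 67 called in the fetus and tested in the adult were called in the adult, all 42 in the same direction. Of all 12793 promoter regions tested at both stages, 1284 were called in the adult. Against adult mature luminal-like nuclei over basal-like ones, the correlation of distal ratios across regions was lower, at 0.42 over 27537 regions, than the 0.58 over 28497 against luminal progenitor-like ones.

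A lineage index placed single nuclei between the adult lineages. It is the share of a nucleus's reads in adult lineage regions that falls in those of the luminal progenitor side, with regions chosen in 1 adult library only (at least 20 reads and a 4-fold difference, that is a log2 ratio of 2), so that no fetal nucleus and no adult nucleus measured took part in the choice. With 6289 luminal and 3437 basal regions from adult replicate 1, the median index was 37.4% and 38.5% in class 4 and 73.0% and 71.5% in class 9. Adult nuclei of replicate 2 had 20.7% on the basal-like and 88.8% on the luminal progenitor-like side. On these regions, chosen for their difference in the adult, both fetal classes lay inside the adult range, each nearer to its own adult lineage. The gap between the class medians was 35.6 and 32.9 percentage points in the 2 fetal libraries and 68.1 in the adult. Few nuclei crossed the midpoint of the class medians: 24 of 385 class 9 nuclei lay below it and 3 of 132 class 4 nuclei above it in replicate 1, and 62 of 652 and 8 of 338 in replicate 2. In adult replicate 2, with its own midpoint, 8 of 805 luminal progenitor-like and 6 of 715 basal-like nuclei crossed. A class 9 nucleus had the higher index in 99.5% and 99.0% of all pairs with a class 4 nucleus. In adult replicate 2, a luminal progenitor-like nucleus had it in 99.7% of pairs with a basal-like one. The classes sort these same nuclei, so a low overlap between them is partly built in and is no evidence that they are distinct. Fetal nuclei of other classes are left out of these counts. A nucleus had a median of 249 lineage reads in class 9 and 253.5 in class 4 of replicate 1, and of 372 and 290 in replicate 2.

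Regions chosen in adult replicate 2 gave gaps of 38.4 and 35.2 points against 74.8 in the adult. With regions chosen in fetal replicate 2 instead, 3121 higher in class 9 and 2181 higher in class 4, the gap in fetal replicate 1 was 52.2 points, with medians of 84.4% and 32.3%, and adult nuclei had gaps of 57.3 and 56.1. The adult medians were 91.6% and 90.8% on the luminal progenitor-like and 34.3% and 34.7% on the basal-like side, so that class 4 lay just below adult basal-like nuclei. Regions chosen in fetal replicate 1 gave 34.6 points in fetal replicate 2 and 37.7 and 37.9 in the adult. Class 4 was again below adult basal-like nuclei, with a median of 50.3% against 53.1% and 52.3%. On regions chosen in the fetus, the fetal and adult gaps thus lay closer together than on regions chosen in the adult.

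**Figure D5:**
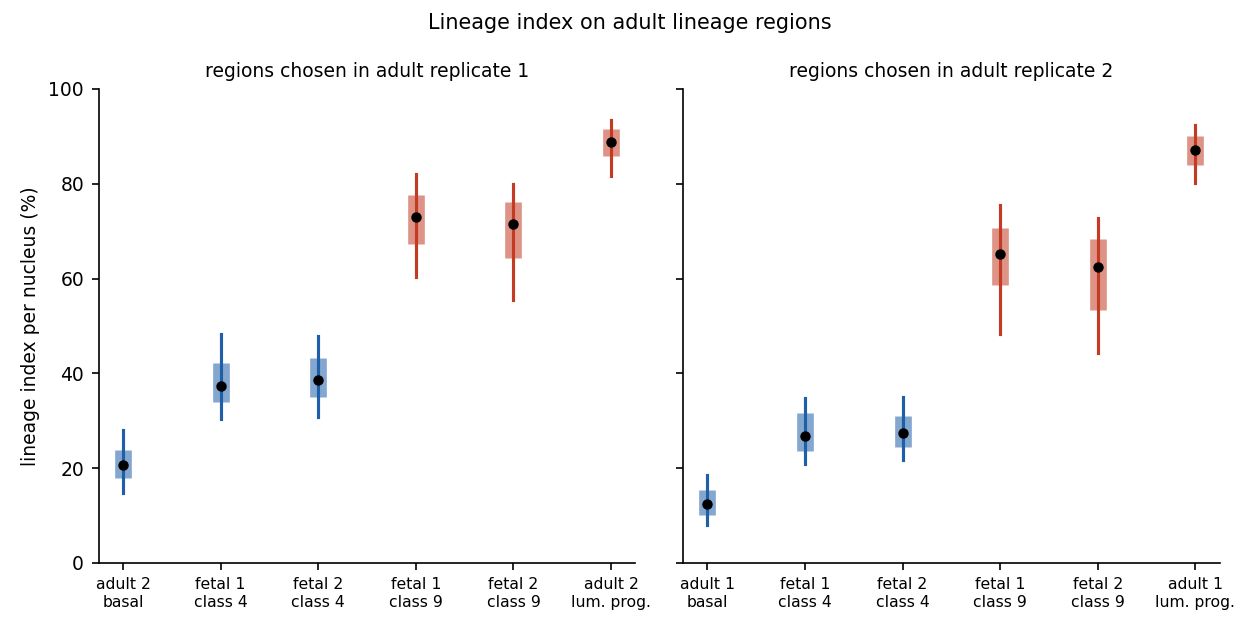
Lineage index per nucleus in percent (vertical axis) for adult lineage regions chosen in adult replicate 1 (left) and 2 (right). Dots are medians, thick bars the quartile range of the nuclei and thin lines the 10th to 90th percentile; class 4 medians are 37.4% and 38.5% and class 9 medians 73.0% and 71.5% on the left, between the adult medians of 20.7% and 88.8%.

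Regions whose lineage ratio changed between the stages were tested in 1 fit over both. The count depended on the adult luminal side: with mature luminal-like nuclei 8616 of 47567 distal regions were called (18.1%). The counts below are with luminal progenitor-like nuclei. For distal regions 1080 of 39688 were called (2.72%), 640 of them with a higher ratio in the fetus (1.61%) and 440 with a lower one (1.11%). Of the 913 that were tested in each stage, 840 had the ratio of larger absolute size in the adult, and 384 had opposite signs in the 2 stages. The same fit called 112 of 13697 promoter regions (0.818%), with a higher ratio in the fetus for 0.511% and a lower one for 0.307%. It called 1041 of 17069 gene spans (6.1%; 3.65% higher and 2.45% lower), in a test added after the data were seen. DESeq2 called 493, 11 and 276, and leaving out 1 library left 158 to 310 distal regions, 23 to 92 promoter regions and 417 to 711 gene spans.

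The 4 regions with the smallest p in each direction were open in both fetal classes. A region inside Aff3, chr1:38394781-38395780, had 41.3 and 44.7 CPM in class 9 and 57.8 and 73.3 in class 4, against 1.43 and 2.76 in adult luminal progenitor-like and 97.9 and 80.0 in adult basal-like nuclei. It was open in both fetal classes and nearly closed on the adult luminal side (difference in log2 ratio 4.69, SE 0.67, adjusted p = 2.5e-06). Inside Tspan14, chr14:40914268-40915267 was the mirror image, with 68.1 and 78.1 in class 9, 54.4 and 70.9 in class 4, 114 and 115 in adult luminal progenitor-like and 3.91 and 2.70 in adult basal-like nuclei (difference −4.94, SE 0.63, adjusted p = 2.1e-07). A region inside Rnf149 and regions with Cebpb and Cxadr as the nearest genes, 24262 and 556790 bases away, shared the first pattern. A region inside Slc1a1 and regions with Foxa2 and Olfm4 as the nearest genes, 190873 and 2041425 bases away, shared the second. With adult mature luminal-like nuclei as the luminal side, the difference at the region nearest to Foxa2 turned to 0.92 and was not called (adjusted p = 0.60). At the last of these the adult basal-like sums held 0 reads in both libraries, so that its fitted difference is no bound.

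At promoters the named regions were as follows. A promoter-type region inside Krt14, chr11:100207509-100208508, had 62.6 and 56.8 CPM in class 9 and 118 and 99.1 in class 4, against 6.95 and 7.66 in adult luminal progenitor-like and 151 and 114 in adult basal-like nuclei (difference 3.29, SE 0.55, adjusted p = 1.2e-05). Class 9 lay below class 4 and above adult luminal progenitor-like nuclei in both libraries at this basal keratin gene. A second promoter region at Krt14 had a fetal log2 ratio of 0.46 and was not called (adjusted p = 0.88). Vgll3, which codes for a TEAD cofactor, had 136 and 140 in class 9 and 113 and 118 in class 4 against 49.5 and 53.6 and 231 and 274 (difference 2.54, SE 0.35, adjusted p = 4.6e-08). The matrix gene Fbn1 and the IGF-binding protein gene Igfbp3 also had a higher ratio in the fetus, with differences of 3.52 and 3.32. At Fbn1 class 9 lay below class 4 in both libraries (35.8 and 58.1 against 51.2 and 129). At Igfbp3 the order of the classes turned between the libraries. In the other direction, the potassium channel gene Kcnn4 had 103 and 124 in class 9 and 113 and 111 in class 4 against 159 and 180 and 17.1 and 21.8 (difference −3.04, SE 0.45, adjusted p = 3.5e-07). At a region inside Rasef, a small GTPase gene, 997 bases from its start, class 9 had 16.4 and 28.7 and class 4 had 61.5 and 43.5, against 69.5 and 85.1 in adult luminal progenitor-like and 0 and 2.42 in adult basal-like nuclei (difference −6.57, SE 0.93, adjusted p = 5.0e-08). Over the whole Rasef span the fetal classes overlapped, with 42.2 and 39.7 in class 9 and 53.9 and 36.5 in class 4. Tnf and 1700014D04Rik had differences of −6.30 and −5.14 with few reads in class 9.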

How the data were processed

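Single-nucleus ATAC-seq was deposited for 2 fetal and 2 adult libraries. Per the submitters' processing notes, Bowtie2, MACS2 and bedtools were used with mm10, and versions are not given in the sources used here. The authors deposited aligned reads as intervals with barcodes, 145453 distal and 19204 distinct promoter regions (21179 lines), chromVAR motif scores with a class and a read count per nucleus, and Cicero co-accessibility scores. Deposited read counts matched the interval lines of all nuclei.

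From these, reads overlapping each region, or each RefSeq gene span (GRCm38.p6) with 2000 bases added at both ends, were summed per library and class. Features that averaged 10 or more reads over the sums were tested with edgeR 4.0.16 (quasi-likelihood, TMM, library as a block because both classes come from 1 library; R 4.3.3), and mean motif scores with limma 3.58.1, both Benjamini-Hochberg adjusted at 0.05. A block leaves 1 residual degree of freedom, so the spread was borrowed across features. In the fetal edgeR fits it came wholly from the shared trend (infinite prior degrees of freedom), and a feature's own spread had no weight. SE is the log2 ratio divided by the root of F. Nuclei of 1 library are not replicates, and n is 2 libraries. Deviations of the 2 sides within a library had r = 0.04 over 9394 distal regions. The difference between stages was an interaction over 8 sums. Alternatives were other scalings, DESeq2 1.42.0, other filters, left-out libraries, thinning and the midpoint of the read. The scripts were tested on simulated data.

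Named features are, per direction, the 6 distal regions and 8 promoter regions or gene spans with the smallest p among those called, with an absolute log2 ratio of at least 1, at least 20 reads per sum on average and no overlap between classes. Named motifs are the 8 largest called differences without overlap, 1 per identical column. Members and lists were chosen with earlier results of these data known. A few results that the rules chose are not reported here. Distal sequences were not used here, nor was the Cicero gene accessibility table, whose columns name no sample. The number of reads limits precision, and binomial intervals cover counting error only.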

Additional observations from a re-analysis of the deposited data

Results flagged for a closer look

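The following results stood out because the lineage ratio differed between fetal and adult nuclei in a test of that difference (edgeR or limma, Benjamini-Hochberg adjusted p under 0.05). A positive value means a ratio that was higher in the fetus. The test passed for 1080 distal regions, 112 promoter regions, 1041 gene spans and 147 motif columns.

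Among distal regions the differences in log2 ratio were 4.69 in Aff3, 3.39 in Rnf149, −4.94 in Tspan14 and −4.96 in Slc1a1. With the nearest gene 24262 bases or more away, they were 6.42 (nearest gene Cebpb), 4.07 (Cxadr), −4.29 (Foxa2) and −8.93 (Olfm4). At the region nearest to Foxa2 the difference was 0.92, and not called, with adult mature luminal-like nuclei as the luminal side. Regions named for the fetal comparison added 0.28 at the region nearest to Esp38, 4.16 in Ergic1, 2.21 in Ttc23 and 2.55 in Nrg1. The region nearest to Esp38 is among the 6 deepest regions, which are set apart above. The value for which Olfm4 is the nearest gene rests on adult basal-like sums of 0 reads and is no bound.

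Among promoter regions they were 2.54 at Vgll3, 3.52 at Fbn1, 3.29 at Krt14, 3.32 at Igfbp3, −6.57 at Rasef, −3.04 at Kcnn4, −6.30 at Tnf, −5.14 at 1700014D04Rik, 2.45 at Cldn6 and −6.33 at Mien1. At Mien1 both adult basal-like sums held 0 reads, so this value too is no bound.

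Among gene spans they were −0.94 at Ehf, −0.77 at Krt78, 0.55 at Col4a2, −0.75 at Lrp1b and 0.69 at Lama3. From each gene list only the gene with the smallest adjusted p was taken. These were 3.08 at Krt17, 1.30 at Mylk, 1.60 at Lgr5, −1.17 at Epcam, 0.71 at Runx1, −2.99 at Kit, 1.05 at Fgfr2 and 0.94 at Pthlh. Other listed genes also passed, among them Krt14, Trp63, Acta2 and Elf5, whose differences are described above.

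Among motifs the differences in score were −0.24 for Bach2, −1.18 for Elf3, −1.39 for Elf5, −0.36 for Fosb, −0.59 for Grhl1, −0.46 for Nfe2l2, 0.48 for Nfix, −0.33 for Smarcc1, 0.76 for Trp63 and 0.50 for Trp73.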

How the results depend on the processing

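Of 37955 distal regions DESeq2 called 485 and leaving out a fetal library gave 751 to 972. Settings that changed the number tested gave 937 of 9394 (9.97%) at a minimum mean of 30 reads, 1488 of 141624 with no filter (1061 higher in class 9 and 427 lower), 1204 of 26189 without the deepest 10% of nuclei and 807 of 21613 with class 9 thinned to class 4 reads. For promoter regions the same settings gave 4, 25 to 84, 45 of 8960, 60 of 19128, 33 of 12309 and 36 of 11599, and scaling by all reads gave 174. For gene spans DESeq2 called 277 (42 higher and 235 lower) and left-out libraries gave 588 to 783. Without a library the other one is assumed to vary like the adult libraries.

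For the difference between stages, DESeq2 gave 493 distal, 11 promoter and 276 gene calls, the minimum of 30 reads 512 distal and 72 promoter calls, left-out libraries 158 to 310, 23 to 92 and 417 to 711, and thinned adult sums 71 promoter calls. Motif calls were 94 to 111 without 1 library. With adult mature luminal-like nuclei as the luminal side they were 8616, 612, 2782 and 258. That side turned the difference at the region nearest to Foxa2 to 0.92 and that at Kit to 1.58, and the Sox9 motif turned from −0.16 to 0.022 without replicate 1, with −0.33 without replicate 2. The cause was not tested.

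Without the replicate block the fetal calls were 2015 distal, 79 promoter, 1319 gene and 168 motif, and those between stages 1555, 95, 535 and 114. At matched depth with at least 30 reads, 9.53% of distal regions were called in the fetus and 32.0% in the adult, 5.73% of promoter regions in the adult, and 9.42% and 24.5% of gene spans. The lineage index gap was 38.4 and 35.2 points with regions from adult replicate 2, 24.0 and 22.5 with a log2 ratio of 1 (adult 49.7), 40.9 and 38.3 with 3 (adult 76.3), 24.3 and 21.3 with promoter regions (adult 57.3) and 52.2 or 34.6 with regions chosen in fetal replicate 2 or 1. With regions from adult replicate 2 the last 3 adult-chosen settings gave 27.3 and 25.7 (adult 55.8), 45.2 and 42.8 (adult 84.5) and 27.3 and 22.9 (adult 66.7). Without counting DESeq2, 17 of 18 called distal regions, 4 of 16 promoter regions, 22 of 53 gene spans and 33 of 46 motifs were called under every setting. Of the values of called single features under other settings, 227 distal, 177 promoter, 520 gene and 279 motif values kept their call and 3, 29, 96 and 42 lost it, and 1 motif value turned.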
